A study of Mus musculus with 9 samples.

Results

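Natural killer (NK) cells grown from mouse bone marrow were exposed to SIS3, an inhibitor of SMAD3, and then to TGF-β1, and their RNA was compared by sequencing with that of untreated cells. The comparison takes 6 of the series' 9 libraries, all those labelled as untreated (Ctrl, n = 3) and all those given both agents (SIS3_TGFb, n = 3). It covers 12212 genes of the 16876 in the table of counts, the ones that passed a filter on low counts. The other 3 libraries, labelled as given TGF-β1 alone (TGFb), entered that filter, the scaling of the libraries and the estimate of spread. No value of theirs is given.

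Both groups came from C57BL/6 marrow cultured in MEM-α, first for 4 days with IL-7 at 1 ng/mL, Flt3L at 10 ng/mL, SCF at 30 ng/mL and IL-15 at 50 ng/mL. A further 1 week followed with IL-15 at 50 ng/mL and IL-2 at 20 ng/mL, so the cytokines that drive NK growth were present in both. Ctrl cells received neither agent. SIS3_TGFb cells received 10 µM SIS3 for 3 h and were then stimulated for 3 h with 5 ng/mL TGF-β1. Titles of those samples name SIS3 alone, while their treatment text and the series design name TGF-β1 too. The 2 groups differ in both agents at once and no group with SIS3 alone was analysed here, so the effects of SIS3 and of TGF-β1 cannot be told apart in the values below. No source used here describes a solvent control. Nor is it stated whether the replicates came from different mice or cultures, and p-values therefore measure the spread between these libraries, which may be technical.

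TGF-β1 binds a pair of receptor kinases, TGFBR2 and TGFBR1, which phosphorylate SMAD2 and SMAD3. These join SMAD4, enter the nucleus and switch genes on or off, among them the genes of inhibitors that close the loop, such as Smad7, Ski, Skil and Pmepa1. In NK cells TGF-β is known to restrain cytotoxicity and growth driven by IL-15 and to favour markers of tissue residency. SIS3 is a small molecule described as a selective inhibitor of SMAD3 phosphorylation. NK cells kill by releasing perforin and granzymes, and growth under IL-2 and IL-15 runs through JAK and STAT5 signalling, MYC and raised glycolysis. A separate programme, the integrated stress response, works through the factor ATF4, which turns on genes of amino acid uptake and synthesis, tRNA charging and, with CHOP (Ddit3), cell stress.

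Library totals were between 16118249 and 16435018 expected counts in Ctrl and between 16483474 and 16718673 in SIS3_TGFb, so depth was close to equal. Between 14439 and 14569 genes were above 0 in the Ctrl libraries and between 14808 and 14853 in the SIS3_TGFb libraries, and the share of counts in the top 10 genes was 13.57% to 14% in Ctrl and 11.38% to 11.78% in SIS3_TGFb. The first principal component of log2 CPM (counts scaled to library size with TMM factors) held 76.9% of the variance and separated the 2 groups. Markers of NK cells were abundant, with a summed level of 21421 ± 603 CPM in Ctrl and 17628 ± 124 CPM in SIS3_TGFb (SD, n = 3 each). Macrophage markers, 15 of 15 present, summed to 1428 to 1896 CPM in Ctrl and to 1285, 1195 and 1985 CPM in SIS3_TGFb replicates 1, 2 and 3. Dendritic cell markers ran the same way, at 574 to 808 CPM in Ctrl and at 564, 520 and 904 CPM in the SIS3_TGFb libraries, so SIS3_TGFb replicate 3 stood above its group in both. Lyz2 made up 45.2% of the macrophage sum and Cd74 57.7% of the dendritic one, so each sum leans on 1 gene. The mast cell and basophil markers summed to 614 to 638 CPM in Ctrl and 555 to 653 CPM in SIS3_TGFb, while B cell, eosinophil and erythroid or megakaryocyte markers summed to at most 48.9 CPM in each library. Neutrophil, T cell, stromal and innate lymphoid type 2 sums were each carried to over 95% by 1 gene (Ctsg, Thy1, Pecam1 and Klrg1), with Cd3e at no more than 2.14 CPM in any library and Pax5 at 0. In bulk RNA, fewer cells of a type and less RNA per cell cannot be told apart.

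Most genes tested differed between the groups. By edgeR's quasi-likelihood test with Benjamini-Hochberg adjustment over 12212 genes, 3542 genes (29%) rose and 3043 (24.9%) fell in SIS3_TGFb, 6585 (53.9%) in all at an adjusted p below 0.05. Those shares are the background against which each gene group below has to be read, and the median log2 change over all genes was 0.02. Rises were larger than falls. A log2 change of at least 1 was passed by 664 genes upwards (5.44%) and by 222 downwards (1.82%), and a log2 change of 2 or more by 168 upwards and 16 downwards. Most changes were small, with a median of 0.47 among genes that rose and -0.33 among those that fell. The 3 Ctrl libraries did not overlap the 3 SIS3_TGFb libraries for 7458 genes (61.1%), and 6397 genes (52.4%) were both called and separate. Without scaling factors the split moved to 4222 higher and 2395 lower, that is from 53.8% to 63.8% of calls higher, and with upper-quartile factors falls outnumbered rises, at 3201 higher and 3475 lower (47.9% higher). The share higher was 50.7% with RLE factors and 50.2% with DESeq2. On the 6 libraries alone, without TGFb in the filter and scaling, 12081 genes were tested. There the share higher was 50.9% and the median log2 change over all genes 0.00265. Counts of one direction against the other thus depend on the scaling and on the libraries used. Leaving out SIS3_TGFb replicate 3 gave 3370 higher and 2921 lower.

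**Figure D1:**
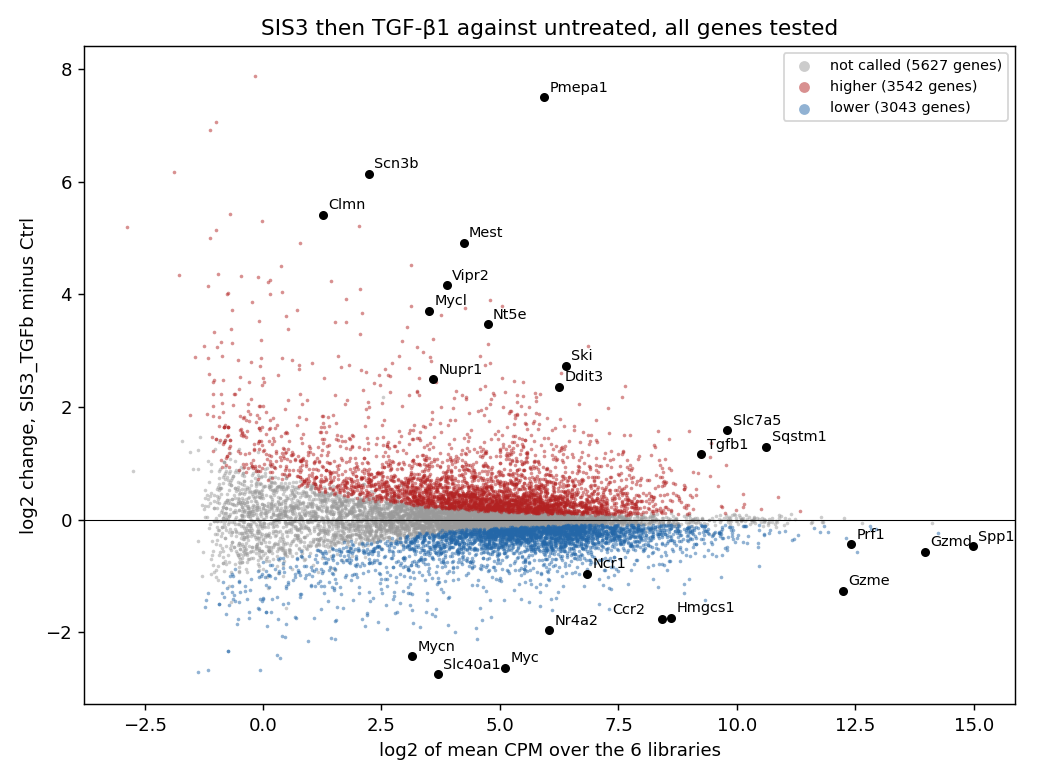
Log2 change of SIS3_TGFb against Ctrl (vertical axis) by the log2 of mean CPM over the 6 libraries (horizontal axis), 1 point for each of the 12212 genes tested, with genes that rose or fell at an adjusted p below 0.05 in red or blue. Rises reach 7.50 at Pmepa1 among the genes labelled, while the falls end near -2.75 at Slc40a1.

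Pmepa1, a feedback inhibitor that binds receptor-regulated SMADs, had the largest rise among the genes named here by size. Levels of Pmepa1 in Ctrl were 0.757, 0.801 and 0.426 CPM, and those in SIS3_TGFb were 122, 127 and 115 CPM. The fit gave Pmepa1 a log2 change of 7.50 (SE 0.105, adjusted p = 1.6e-16), and the gene lies on chromosome 2 from 173224458 to 173276731 in GRCm38.p6, annotated as protein coding. Scn3b was measured at 0.126, 0.123 and 0.122 CPM in Ctrl and at 9.39, 10.5 and 7.95 CPM in SIS3_TGFb. Scn3b encodes an auxiliary subunit of sodium channels. For Scn3b this was a log2 change of 6.14 (SE 0.266, adjusted p = 2.4e-11). Next among the 10 largest rises, by log2 change, came Clmn (5.41), Wscd1 (5.21), the imprinted gene Mest (4.92) and Ndrg4 (4.51). The proton-sensing receptor Gpr4 (4.23), the VIP receptor Vipr2 (4.17), the E3 ligase Rnf144a (4.09) and Misp3 (3.92) completed the 10. Genes entered this ranking and that of the falls only if the libraries of the groups were separate, as for 61.1% of genes tested. Gpr4 illustrates a gene near the floor in untreated cells, at 0.189, 0.246 and 0.365 CPM in Ctrl and 4.61, 5.99 and 4.93 CPM in SIS3_TGFb.

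Falls were led by the iron exporter ferroportin. Slc40a1 gave 18.0, 23.8 and 25.6 CPM in the Ctrl libraries and 2.36, 3.08 and 4.59 CPM in the SIS3_TGFb libraries. Slc40a1 fell, with a log2 change of -2.75 (SE 0.202, adjusted p = 1.3e-08), the gene lying on chromosome 1 from 45908070 to 45926532. Ferroportin is expressed strongly by macrophages, and its highest SIS3_TGFb library was replicate 3, the one with the highest macrophage marker sum, whose part in this value was not tested. Next came 2 members of the MYC family of transcription factors that drive growth. Myc stood at 60.2, 59.0 and 58.8 CPM in the Ctrl libraries and at 8.56, 9.94 and 10.2 CPM in the SIS3_TGFb libraries. Levels of Mycn in Ctrl were 13.7, 16.3 and 14.9 CPM, and those in SIS3_TGFb were 2.78, 2.67 and 2.90 CPM. Both sets of libraries were far apart, with log2 changes of -2.63 (SE 0.0674, adjusted p = 8.3e-14) and -2.42 (SE 0.140, adjusted p = 7.2e-10). The others among the 10 largest falls were the RNA-binding factor Celf4 (-2.13), Ndnf (-2.12), Prrg1 (-2.10), Alpk2 (-2.00), the nuclear receptor Nr4a2 (-1.97), Ankrd37 (-1.95), a target of hypoxia-inducible factor, and Spin4 (-1.93).

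Another set of genes had next to no reads in untreated cells. Of the genes called higher, 15 had at most 3 counts over all 3 Ctrl libraries. Of the genes called lower, 0 had at most 3 counts over the SIS3_TGFb libraries. Sertad4 had 0 counts over Ctrl and 92 over SIS3_TGFb, at least 29-fold higher against a floor of 3 counts over the group. Nxph4, a neurexophilin, had 0 and 52 counts, at least 16.4-fold higher. Fibcd1, a chitin-binding receptor, had 2 and 99 counts, a ratio of 46.7 (exact 95% interval 12.6 to 391), and the scavenger receptor Olr1 had 3 and 71, a ratio of 22.3 (7.34 to 111). Cpa5 (1 and 62 counts), Plek2 (1 and 51), Trim67 (3 and 58) and the G protein subunit Gna14 (3 and 57) completed the 8 with the highest level. Floor and intervals are over the group and cover counting error only. They make no allowance for the choice of these genes by their low Ctrl counts, which can make the ratios too large. With so few Ctrl counts, the genes could pass the low count filter only through libraries of the other groups.

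By absolute amount, other genes led. The 10 largest differences in mean CPM among called genes were 6 effector genes of NK cells (Gzmd, Gzme, Gzmg, Gzmc, Gzmb and Prf1) with the secreted phosphoprotein Spp1 and the actin-binding peptide gene Tmsb4x, and upwards the autophagy receptor Sqstm1 and the amino acid transporter Slc7a5. Spp1 was measured at 38425, 37158 and 36606 CPM in Ctrl and at 27566, 27409 and 26064 CPM in SIS3_TGFb. The fit gave Spp1 a log2 change of -0.47 (SE 0.0492, adjusted p = 8.1e-07). Sqstm1 went from 912 ± 44.5 to 2237 ± 102 CPM, and Slc7a5 from 443 ± 14.3 to 1335 ± 17.2 CPM (SD, n = 3 each). Genes Gzmc to Gzmg are close copies, and reads could be split between them in the authors' counting, so their single values are uncertain.

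Among ligands of the TGF-β family, Tgfb1 and Tgfb3 rose. Tgfb1 gave 387, 382 and 356 CPM in the Ctrl libraries and 841, 847 and 825 CPM in the SIS3_TGFb libraries. For Tgfb1 this was a log2 change of 1.16 (SE 0.0395, adjusted p = 1.6e-12), with no overlap between the groups. Tgfb3 started near 0, at 0.568, 0.739 and 0.304 CPM in Ctrl against 6.44, 5.87 and 6.15 CPM in SIS3_TGFb (log2 change 3.50, SE 0.227, adjusted p = 2.8e-09). Among genes of proteins that hold or present latent TGF-β, 2 fell. Lrrc32 (GARP), which anchors latent TGF-β at the cell surface, fell by 1.41 on the log2 scale (adjusted p = 0.015, and 0.084 without Ctrl replicate 3 or 0.067 without SIS3_TGFb replicate 2), and the latent TGF-β binding protein gene Ltbp3 fell by 0.26.

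The genes of the TGF-β receptor pair did not pass the test. Tgfbr1 had a log2 change of 0.11 (adjusted p = 0.099), with Ctrl libraries at 34.6, 38.3 and 38.8 CPM and SIS3_TGFb libraries at 41.1, 38.9 and 41.0 CPM. For Tgfbr2 the log2 change was -0.11 (adjusted p = 0.053), and it passed in 9 of 18 alternative settings, with adjusted p from 0.01 to 0.35, among them the fits without Ctrl replicate 2, SIS3_TGFb replicate 2 or TGFb replicate 3 (0.042, 0.028 and 0.039). Receptors that serve activins and other family ligands did change: Acvr1 rose by 1.02 and Acvr1b by 1.68 on the log2 scale, the latter from 7.13 ± 1.19 to 22.9 ± 1.66 CPM.

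Of the SMADs that carry the signal, Smad2 and Smad3 did not pass and Smad4 passed narrowly. Smad2 stood at 48.5, 49.2 and 49.0 CPM in Ctrl and 53.6, 50.3 and 48.7 CPM in SIS3_TGFb (log2 change 0.06, adjusted p = 0.33). Smad3 stood at 5.24, 4.25 and 3.41 CPM in the Ctrl libraries and at 5.43, 4.88 and 6.50 CPM in the SIS3_TGFb libraries. Smad3 encodes the protein that SIS3 is meant to inhibit, and its groups overlapped (log2 change 0.39, SE 0.164, adjusted p = 0.06). Leaving out Ctrl replicate 1 or SIS3_TGFb replicate 2 brought that p to 0.017 and 0.04. Smad4, the shared partner, was called at a log2 change of 0.13 (adjusted p = 0.04), a call that ended in 11 of 18 alternatives, among them DESeq2 (adjusted p = 0.22) and the fits without Ctrl replicate 2 or 3 and SIS3_TGFb replicate 1 or 2 (0.12, 0.13, 0.075 and 0.14) or TGFb replicate 2 (0.055). Over the whole list of ligands, latency proteins, receptors and SMADs, 24 of 29 members were tested. Of these, 10 rose, 3 fell and 11 did not pass, with a median log2 change of 0.17. The share called, 54.2%, was near the 53.9% of all genes.

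Targets and feedback genes of SMADs were mostly higher in SIS3_TGFb. Of 30 tested members of 32 listed, 20 rose, 3 fell and 7 did not pass (76.7% called, against 53.9% of all genes), the median log2 change was 0.62 and 14 rose by at least 1. Levels of Smad7 in Ctrl were 8.20, 6.96 and 5.96 CPM, and those in SIS3_TGFb were 33.5, 32.7 and 29.1 CPM. Smad7, the inhibitory SMAD that blocks receptor signalling, changed by 2.17 (SE 0.0998, adjusted p = 4.9e-11). Ski was measured at 19.7, 21.8 and 24.2 CPM in Ctrl and at 144, 150.0 and 143 CPM in SIS3_TGFb. Ski is a corepressor that binds SMAD proteins, as is its relative Skil. Ski rose, with a log2 change of 2.73 (SE 0.0543, adjusted p = 9.1e-15), and Skil rose by 1.38. Ldlrad4, which like Pmepa1 binds SMADs, rose by 3.13 from 5.48 ± 0.549 to 48.0 ± 1.54 CPM. The cell cycle inhibitors Cdkn2b (0.55) and Cdkn1a (0.45) rose by less. Among the 3 that fell were Nedd9, an adaptor of cell adhesion (-0.73), and Id2, an inhibitor of helix-loop-helix factors needed for NK development (-0.24).

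A palindromic SMAD element (GTCTAGAC, which reads the same on both strands) was looked for in the 250 bases before the start of the RefSeq promoters of this list. It was found for 0 of 19 genes with a promoter available, and for 0.234% of 9816 tested genes with one. This says only that these letters are not in these windows.

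Genes linked to tissue residency included some of the clearest rises. Nt5e gave 4.92, 4.25 and 4.08 CPM in the Ctrl libraries and 52.1, 53.9 and 41.2 CPM in the SIS3_TGFb libraries. Nt5e encodes CD73, an ectoenzyme that makes adenosine from AMP. The fit gave Nt5e a log2 change of 3.47 (SE 0.125, adjusted p = 2.8e-12). Itga1 stood at 149, 137 and 146 CPM in the Ctrl libraries and at 251, 242 and 208 CPM in the SIS3_TGFb libraries. Itga1 encodes CD49a, an integrin of liver-resident and type 1 innate lymphoid cells, and its groups were separate (log2 change 0.70, SE 0.0660, adjusted p = 2.4e-07). The CD103 gene Itgae rose by 1.17 and the G protein regulators Rgs1 and Rgs2 by 1.44 and 1.92. Entpd1 (CD39, which makes AMP, the substrate of CD73) fell by 0.59, and Ctla4 by 0.86. In the whole list of 22 tested (23 listed), 9 rose, 8 fell and 5 did not pass, with a median of 0.11. The count of falls was 5 without Ctrl replicate 2 and 5 without Ctrl replicate 3.

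**Figure D2:**
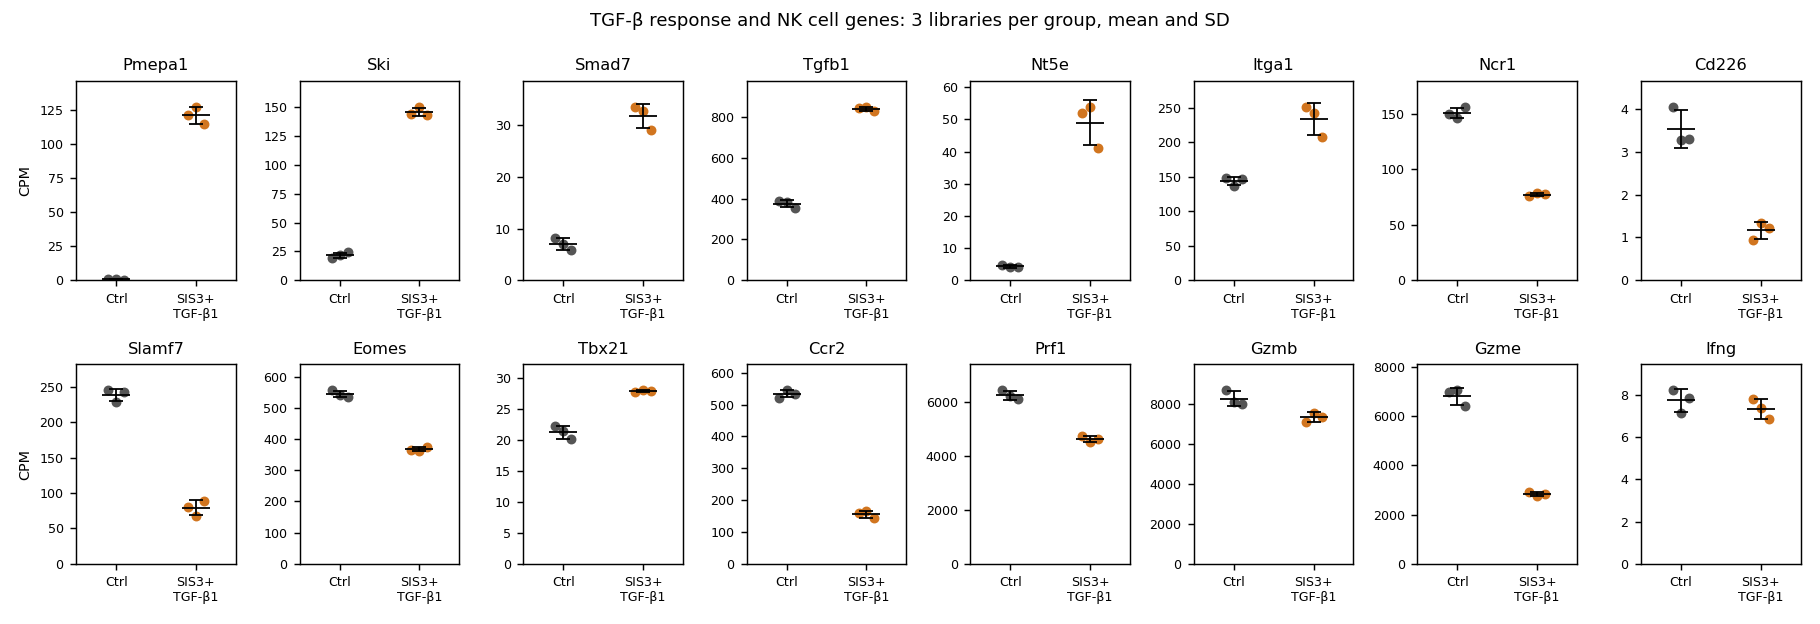
CPM (vertical axes, from 0, 1 panel a gene) in the 3 Ctrl and the 3 SIS3_TGFb libraries for 16 genes of TGF-β signalling and NK cells, with points for libraries, a dash for the mean and bars for the SD. Pmepa1, Ski, Smad7, Nt5e and Itga1 have every SIS3_TGFb point above every Ctrl point, Ncr1, Slamf7, Ccr2 and Eomes have every point below, and the Ifng points overlap.

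Of the 16 NK cell markers, all tested, 9 fell, 3 rose and 4 did not pass, with the same counts in each of 18 alternatives. Activating receptors and their adaptors fell more often than they rose. Of 32 tested (33 listed), 17 fell, 5 rose and 10 did not pass, with a median log2 change of -0.26. Levels of Ncr1 in Ctrl were 149.8, 147 and 156 CPM, and those in SIS3_TGFb were 75.8, 78.4 and 78.0 CPM. Ncr1 encodes NKp46, the receptor by which mouse NK cells are commonly identified, and lies on chromosome 7 from 4337715 to 4345184. For Ncr1 this was a log2 change of -0.96 (SE 0.0390, adjusted p = 1.2e-11). Slamf7 was measured at 245, 228 and 242 CPM in Ctrl and at 80.7, 67.7 and 88.8 CPM in SIS3_TGFb. Slamf7, a receptor of the SLAM family, changed by -1.59 (SE 0.0676, adjusted p = 1.9e-11), and Cd48, the ligand of the SLAM family receptor CD244, fell by 0.94. Cd226 (DNAM-1), chosen after its values were seen, was at 4.04, 3.27 and 3.29 CPM in Ctrl and 0.945, 1.34 and 1.22 CPM in SIS3_TGFb (log2 change -1.59, adjusted p = 6.0e-04). Klrk1 (NKG2D) and Klrb1c (NK1.1) did not pass, at -0.02 and -0.04 (adjusted p = 0.81 and 0.39), with overlapping libraries. The adaptor gene Lat (0.59) and the receptor gene Klrb1b (0.71) were among the 5 that rose, a count that was 3 without Ctrl replicate 3, 3 without SIS3_TGFb replicate 2 and 3 with DESeq2.

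Inhibitory receptors fell as well. Of 19 tested (21 listed), 12 fell, 1 rose and 6 did not pass (median -0.22). Havcr2 (TIM-3) went from 1095 ± 31.6 to 539 ± 13.3 CPM, a fall of 1.02. Klrd1 (CD94), the common partner of the NKG2 receptors, went from 112 ± 7.82 to 64.0 ± 1.27 CPM (log2 change -0.81), and Ceacam1 fell by 0.46. The single rise was Pdcd1 (PD-1) at 0.694, 0.739 and 0.669 CPM in Ctrl and 1.06, 1.39 and 1.05 CPM in SIS3_TGFb (log2 change 0.73, adjusted p = 0.049). It did not hold in 14 of 17 alternatives. Each fit that left out a Ctrl or an SIS3_TGFb library, or TGFb replicate 1, counted 0 rises in this list, and the fit without TGFb replicate 3 counted 2.

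Effector molecules of killing were lower. Of 22 tested (23 listed), 16 fell, 2 rose and 4 did not pass (median -0.22). Prf1 gave 6423, 6199 and 6109.7 CPM in the Ctrl libraries and 4728, 4511 and 4624 CPM in the SIS3_TGFb libraries. Perforin forms the pore through which granzymes enter a target cell. Prf1 fell, with a log2 change of -0.43 (SE 0.0480, adjusted p = 1.5e-06). Gzmb stood at 8689, 8113 and 8032 CPM in the Ctrl libraries and at 7105, 7577 and 7376 CPM in the SIS3_TGFb libraries. Granzyme B made up 40.1% of the summed CPM of the NK markers, a share not scaled for length, and its groups were separate although the change was small (log2 change -0.17, SE 0.0456, adjusted p = 0.0049). Levels of Gzme in Ctrl were 6983, 7046 and 6411 CPM, and those in SIS3_TGFb were 2926, 2767 and 2841 CPM. The fit gave Gzme a log2 change of -1.26 (SE 0.0586, adjusted p = 5.6e-11), next to -0.57 for Gzmd, -0.32 for Gzmc and -0.23 for Gzmg, and Gzma fell by 0.21. The protease inhibitors Serpinb9 (-1.43) and Serpinb6b (-1.06), which guard killer cells against their own granzymes, fell as well, and so did Ctsc (-0.64), the cathepsin that activates granzymes. Of the 2 rises, Srgn (serglycin, the granule proteoglycan) was at 0.28, and Stxbp2 at 0.09 lost its call in 13 of 18 alternatives, among them each fit without a Ctrl or SIS3_TGFb library, where the list had 1 rise, as it had without TGFb replicate 2.

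The chemokine genes Ccl3 and Ccl4 fell, while Ifng did not pass the test. Ccl3 was measured at 14.5, 15.7 and 12.2 CPM in Ctrl and at 3.43, 3.49 and 4.88 CPM in SIS3_TGFb. Ccl4 gave 17.3, 17.6 and 19.1 CPM in the Ctrl libraries and 5.20, 5.17 and 6.50 CPM in the SIS3_TGFb libraries. Both encode attractants of leukocytes (MIP-1α and MIP-1β), and their log2 changes were -1.84 and -1.68 (SE 0.182 and 0.133). Ifng stood at 8.20, 7.15 and 7.85 CPM in the Ctrl libraries and at 7.80, 7.38 and 6.85 CPM in the SIS3_TGFb libraries. The groups overlapped for this main NK cytokine (log2 change -0.07, SE 0.123, adjusted p = 0.64). Tnfsf9 (4-1BB ligand) fell by 0.96, and Flt3l and Ltb rose by 1.02 and 0.59. Over 15 cytokines and chemokines tested (18 listed), 4 rose, 5 fell and 6 did not pass (60% called, near the 53.9% of all genes). The count of falls was 3 without Ctrl replicate 2, 3 without Ctrl replicate 3 and 3 without SIS3_TGFb replicate 1.

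Genes of cytokine receptors and of the JAK and STAT proteins that carry their signals fell more often than they rose. Of 31 receptors, kinases, STATs and feedback genes tested, 15 fell, 6 rose and 10 did not pass (median -0.12). Il10ra fell by 0.88 and the kinase gene Pim2, a STAT5 target, by 1.08, from 31.6 ± 0.977 to 14.9 ± 0.691 CPM. Another STAT5 target went the other way. Levels of Cish in Ctrl were 11.9, 11.5 and 11.3 CPM, and those in SIS3_TGFb were 27.5, 26.4 and 29.8 CPM. Cish encodes an inhibitor of IL-15 signalling in NK cells. For Cish this was a log2 change of 1.27 (SE 0.0756, adjusted p = 9.9e-10), and the IL-21 receptor gene Il21r rose by 1.17.

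Transcription factors of NK cells divided about evenly. Of 39 tested (40 listed), 14 rose, 13 fell and 12 did not pass, with a median of 0.03. Eomes was measured at 556, 542 and 534 CPM in Ctrl and at 366, 361 and 375 CPM in SIS3_TGFb. Tbx21 gave 22.1, 21.4 and 20.1 CPM in the Ctrl libraries and 27.6, 28.0 and 27.8 CPM in the SIS3_TGFb libraries. The factors EOMES and T-bet together specify mature NK cells, and here one fell (-0.57, SE 0.0327, adjusted p = 7.1e-10) while the other rose (0.39, SE 0.0625, adjusted p = 7.2e-05). Runx3, a partner of T-bet, rose by 0.91. Irf4 fell by 1.55 from 4.41 ± 0.727 to 1.50 ± 0.0193 CPM, Prdm1 (BLIMP-1) by 1.40, Mef2c by 1.43 and Ets1 by 1.02. Nfil3, needed for NK cells to form, had a log2 change of 0.09 with separate libraries and an adjusted p of 0.053, and passed in 3 of 18 alternatives, among them the fits without scaling factors (0.0013) and without TGFb replicate 3 (0.033).

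Homing receptors changed in both directions. Of 18 tested (19 listed), 8 fell, 7 rose and 3 did not pass. Ccr2 stood at 522, 544 and 534 CPM in the Ctrl libraries and at 161, 164 and 143 CPM in the SIS3_TGFb libraries. Ccr2 guides cells out of marrow and to inflamed tissue. Ccr2 fell, with a log2 change of -1.77 (SE 0.0586, adjusted p = 1.1e-12). Cxcr3 stood at 4.16, 3.64 and 3.35 CPM in Ctrl and 1.83, 1.92 and 2.21 CPM in SIS3_TGFb, separate but not past the threshold (log2 change -0.90, adjusted p = 0.082), and 4 of 18 alternatives called it, among them the fits on the 6 libraries alone (0.00077) and without TGFb replicate 1 (0.02) or 3 (0.0048). Levels of Gpr183 in Ctrl were 2.90, 3.45 and 2.37 CPM, and those in SIS3_TGFb were 20.2, 21.2 and 19.9 CPM. Gpr183 (EBI2) senses oxysterols and positions lymphocytes. The fit gave Gpr183 a log2 change of 2.81 (SE 0.130, adjusted p = 5.5e-11), and Cd44 rose by 0.94.

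Genes of the integrated stress response were mostly higher. Of 40 tested targets of ATF4 and CHOP (41 listed), 35 rose, 1 fell and 4 did not pass (90% called, against 53.9% of all genes), with a median log2 change of 1.00 beside 0.02. Each of 18 alternatives counted 35 or 36 rises. Ddit3 was measured at 25.6, 25.3 and 23.2 CPM in Ctrl and at 132, 133 and 117 CPM in SIS3_TGFb. Ddit3 encodes CHOP, a factor of prolonged stress. For Ddit3 this was a log2 change of 2.36 (SE 0.0695, adjusted p = 3.3e-13), with wide separation of the groups. Atf4 itself rose by 0.64, from 323 ± 8.01 to 504 ± 16.2 CPM. Trib3, a pseudokinase induced by CHOP, went from 9.57 ± 0.561 to 36.6 ± 1.03 CPM (log2 change 1.93).

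Amino acid transport and synthesis made up much of that list. Slc7a5 gave 458, 439 and 430.2 CPM in the Ctrl libraries and 1338, 1350.3 and 1316 CPM in the SIS3_TGFb libraries. Slc3a2 stood at 256, 269 and 244 CPM in the Ctrl libraries and at 778, 759 and 748 CPM in the SIS3_TGFb libraries. These encode the 2 chains of the LAT1 transporter of large neutral amino acids, and they rose by 1.59 (SE 0.0374) and 1.57 (SE 0.0381). Levels of Asns in Ctrl were 162, 149 and 151 CPM, and those in SIS3_TGFb were 287, 285 and 279.6 CPM. Asparagine synthetase is a classical ATF4 target. Asns rose, with a log2 change of 0.88 (SE 0.0376, adjusted p = 2.1e-11). The neutral amino acid carrier Slc1a4 rose by 1.66, the leucine sensor Sesn2 by 1.55 and Ndrg1 by 0.72. Chac1, which degrades glutathione, did not pass. Chac1 was measured at 6.37, 6.84 and 5.54 CPM in Ctrl and at 7.50, 8.25 and 6.21 CPM in SIS3_TGFb. Its groups overlapped (log2 change 0.23, adjusted p = 0.14), and without SIS3_TGFb replicate 3 the p was 0.035. Jdp2, a repressor of the AP-1 family, was the 1 member that fell in this fit (-0.70, SE 0.0525, adjusted p = 1.8e-08).

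The enzymes that load amino acids onto tRNAs were higher for the most part. Of 20 cytosolic tRNA synthetase genes, all tested, 15 rose, 4 fell and 1 did not pass (median 0.35), and each of 18 alternatives counted 15 rises. Aars (alanine) rose by 0.92, Wars (tryptophan) by 0.83, Nars (asparagine) by 0.69 and Gars (glycine) by 0.65. Farsa, a chain of the phenylalanine enzyme, fell by 0.36 and Qars (glutamine) by 0.25.

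Promoter sequence was looked at for these genes because ATF4 binds, as a dimer with C/EBP factors, a composite element with the letters TGATGNAA (N is any base). The element was searched on both strands in the 250 bases before each transcript start of the RefSeq promoter table. A gene can have more than 1 start there, and it counted once if any start had a match. Matches were found for 9 of 33 genes with a promoter in the ATF4 list (27.3%) and 3 of 13 tRNA synthetase genes (23.1%). The share was 2.48% of 9816 tested genes with a promoter. The number of starts per gene was not matched between lists and tested genes. The lists were written from knowledge of ATF4 targets, so their share is not independent of that factor, and a match is a description and not a site shown to be bound. The stretches below are of 60 bases in GRCm38.p6, lie before a RefSeq transcript start, and are written 5′ to 3′ in the direction of the gene, with the element in capitals (TTGCATCA is the same element on the other strand). Nupr1, Vldlr, Slc7a11, Asns and Aars are genes that rose, and Chac1 and Jdp2 carry the same letters and did not. Matches not shown are those of Atf3 (0.23, not called) and of Pycr1 (1.03), Gars (0.65), Got1 (0.55) and Tars (0.23), which rose.
Nupr1: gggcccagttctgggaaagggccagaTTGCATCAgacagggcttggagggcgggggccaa
Vldlr: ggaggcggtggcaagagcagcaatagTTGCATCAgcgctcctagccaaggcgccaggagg
Slc7a11: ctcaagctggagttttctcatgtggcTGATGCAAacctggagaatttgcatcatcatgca
Asns: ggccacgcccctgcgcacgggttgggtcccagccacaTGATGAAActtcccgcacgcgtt
Aars: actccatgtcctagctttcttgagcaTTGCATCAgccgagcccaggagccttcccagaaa
Chac1: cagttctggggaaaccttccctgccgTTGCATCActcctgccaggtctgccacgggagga
Jdp2: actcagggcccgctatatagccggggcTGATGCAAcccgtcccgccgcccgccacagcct
The Nupr1 stretch is chr7:126625547-126625606 on the minus strand, its element 110 to 103 bases before the start (log2 change 2.49). The Vldlr stretch is chr19:27216794-27216853 on the plus strand, its element 200 to 193 bases before the start (1.82). The Slc7a11 stretch is chr3:50443646-50443705 on the minus strand, its element 66 to 59 bases before the start (1.20), and another match, on the other strand, lies at 47 to 40 bases. The Asns stretch is chr6:7693210-7693269 on the minus strand, its element 23 to 16 bases before the start (0.88). The Aars stretch is chr8:111033704-111033763 on the plus strand, its element 112 to 105 bases before the start (0.92). The Chac1 stretch is chr2:119351023-119351082 on the plus strand, its element 193 to 186 bases before the start (0.23, not called). The Jdp2 stretch is chr12:85599356-85599415 on the plus strand, its element 33 to 26 bases before the start (-0.70, called lower). The starts of Nupr1, Asns and Chac1 are the first base of the gene's RefSeq span. Those of the other 4 lie inside the span, by 540 bases for Vldlr, 55474 for Slc7a11, 6064 for Aars and 760 for Jdp2, so these stretches stand before an internal transcript start. Nupr1, a stress factor of chromatin, and Vldlr, a lipoprotein receptor, were chosen for display by their match and had the largest rises among the matched genes. Nupr1 gave 3.47, 3.94 and 3.53 CPM in the Ctrl libraries and 21.0, 18.5 and 22.0 CPM in the SIS3_TGFb libraries. Vldlr stood at 1.83, 1.73 and 2.56 CPM in the Ctrl libraries and at 8.03, 7.44 and 6.27 CPM in the SIS3_TGFb libraries. In both, each SIS3_TGFb library was above each Ctrl library.

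Genes of the unfolded protein response went both ways. Of 26, all tested, 8 rose, 11 fell and 7 did not pass, with a median of -0.06. Levels of Herpud1 in Ctrl were 46.9, 44.7 and 46.1 CPM, and those in SIS3_TGFb were 113, 116 and 106 CPM. Herpud1 takes part in degradation from the endoplasmic reticulum and is shared with the ATF4 response. The fit gave Herpud1 a log2 change of 1.28 (SE 0.0451, adjusted p = 2.1e-12). Hspa5 was measured at 737, 773 and 764 CPM in Ctrl and at 910.4, 892 and 864 CPM in SIS3_TGFb. Hspa5 (BiP), the main chaperone there, rose by 0.23 (SE 0.0375, adjusted p = 8.6e-05). The sensor Ern1 rose by 0.90, the factor Xbp1 by 0.67 and Edem1 by 0.55. The sensor kinase Eif2ak3 (PERK) fell by 0.45 and the chaperone calreticulin (Calr) by 0.42, and these, the falls with the smallest p, were chosen after their values were seen.

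Cytosolic and mitochondrial chaperone genes were mostly lower, 13 of 17 tested (18 listed), with 2 higher and 2 not past the test (median -0.29). Hsph1 fell by 0.76, Bag3 by 0.71 and the co-chaperone Stip1 by 0.44. Hspa9, which encodes a mitochondrial chaperone, rose by 0.41 and Dnaja1 by 0.22.

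Targets of the antioxidant factor NRF2 went in both directions, with 5 higher, 10 lower and 7 not past the test of 22. Sqstm1 gave 947, 927 and 862 CPM in the Ctrl libraries and 2321, 2266 and 2123 CPM in the SIS3_TGFb libraries. For Sqstm1 this was a log2 change of 1.29 (SE 0.0442, adjusted p = 1.6e-12). This autophagy receptor also binds KEAP1, the inhibitor of NRF2. Osgin1 stood at 24.5, 25.6 and 22.8 CPM in the Ctrl libraries and at 211, 223 and 184 CPM in the SIS3_TGFb libraries. Osgin1, an oxidative stress growth inhibitor, had separate groups (log2 change 3.09, SE 0.0699). Malic enzyme Me1 fell by 0.93 and G6pdx by 0.50, both of which encode enzymes that make NADPH, and glutathione reductase Gsr fell by 0.58.

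Genes of the p53 response rose more often than they fell. Of 27, all tested, 15 rose, 1 fell and 11 did not pass (median 0.28). The share called, 59.3%, was near the 53.9% of all genes. Sesn2, named above with the amino acid genes, is also in this list and had its smallest p (log2 change 1.55). Levels of Bbc3 in Ctrl were 27.2, 25.8 and 24.3 CPM, and those in SIS3_TGFb were 63.0, 62.6 and 57.1 CPM. Bbc3 (PUMA) is a BH3-only protein that promotes apoptosis. Bbc3 rose, with a log2 change of 1.24 (SE 0.0623, adjusted p = 1.4e-10). Trp53inp1 rose by 1.16 and the nuclease Aen by 0.93. The only fall was Tigar (-0.31, adjusted p = 0.017), a call lost in 4 of 18 alternatives and absent without Ctrl replicate 2, SIS3_TGFb replicate 1 or SIS3_TGFb replicate 2. In the BCL2 family, 6 of 13 tested (16 listed) rose, 3 fell and 4 did not pass. The 3 largest rises were all BH3-only genes, Bbc3, Bmf (1.21) and Bcl2l11 (BIM, 1.19), while Bid fell by 0.44 and the pore-forming Bak1 by 0.39.

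Growth genes were lower, starting with Myc and Mycn. Of 33 MYC and ribosome biogenesis genes tested, 27 fell, 2 rose and 4 did not pass (87.9% called, median -0.41), and 18 alternatives counted 25 to 30 falls. Ppan, which helps assemble the large ribosomal subunit, fell by 1.17 from 31.7 ± 0.567 to 14.1 ± 0.259 CPM, and dyskerin (Dkc1), which modifies ribosomal RNA, by 1.05. Nolc1 was measured at 88.6, 88.6 and 76.5 CPM in Ctrl and at 45.4, 47.4 and 45.9 CPM in SIS3_TGFb. Nolc1, a nucleolar phosphoprotein chosen after its values were seen, had separate groups (log2 change -0.87). Odc1, the first enzyme of polyamine synthesis and a MYC target, rose by 0.66, and Noc4l by 0.80. A MYC E-box (CACGTG, the same on both strands) was found for 1 of 26 genes of this list with a promoter (3.85%, Nop2) and for 9.97% of tested genes with one.

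The MYC family had a member that went against the other 2. Mycl gave 1.51, 1.60 and 1.70 CPM in the Ctrl libraries and 20.1, 23.8 and 19.4 CPM in the SIS3_TGFb libraries. Mycl, which was singled out after its values were seen, rose as Myc and Mycn fell (log2 change 3.71, SE 0.136, adjusted p = 3.4e-12). Among 9 other genes of the MAX network, picked in the same way, Max rose by 0.31, Mxd1 by 0.22, Mxd3 by 1.02 and Mxi1 by 0.48. Mlx fell by 0.31 and Mlxip by 0.56, and Mnt, Mga and Mxd4 did not pass (log2 changes -0.06, 0.13 and 0.18). CPM is not scaled for gene length, so these levels do not rank the family members.

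**Figure D3:**
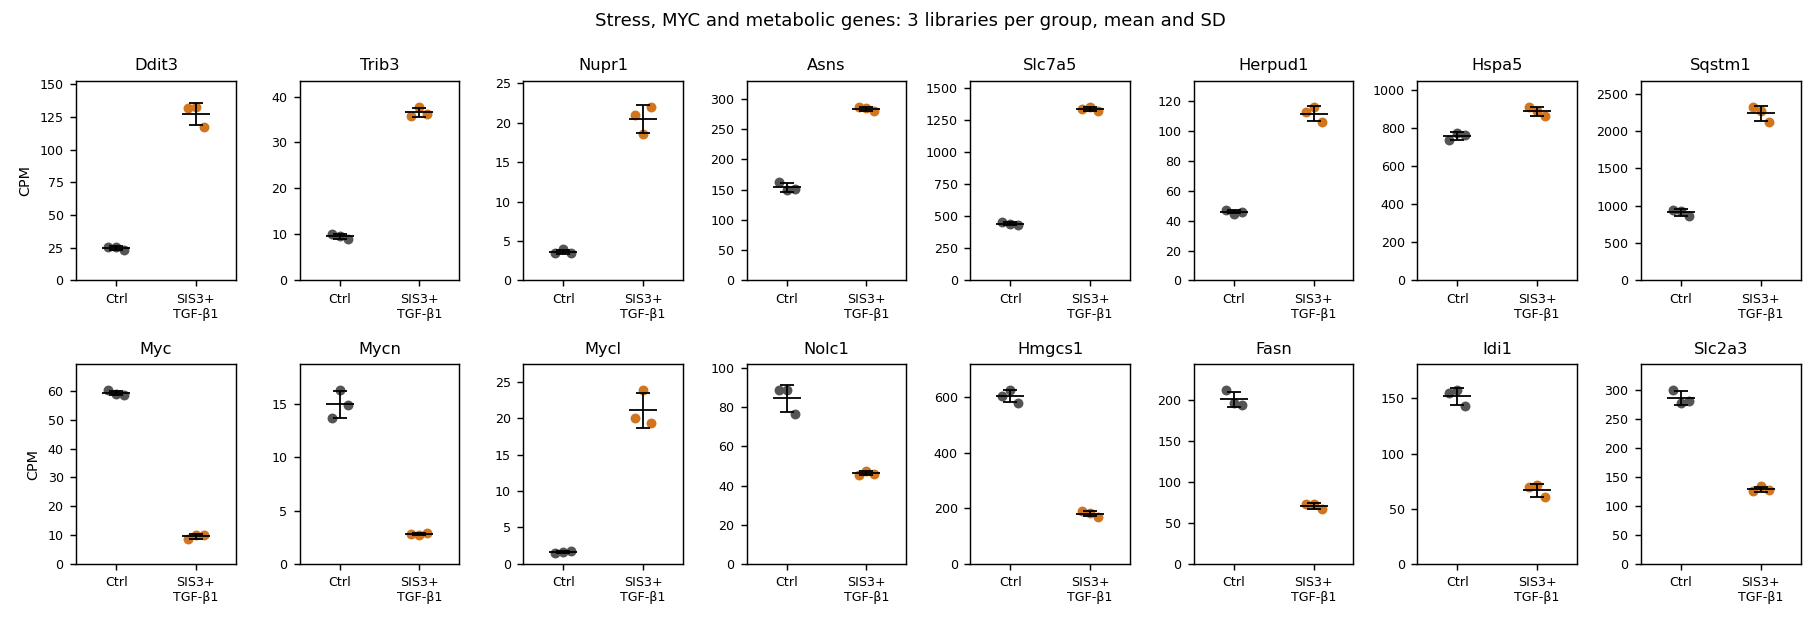
CPM (vertical axes, from 0, 1 panel a gene) in the 3 Ctrl and the 3 SIS3_TGFb libraries for 16 genes of stress, growth and metabolism, with points for libraries, a dash for the mean and bars for the SD. Every SIS3_TGFb point is above every Ctrl point for Ddit3, Trib3, Nupr1, Asns, Slc7a5, Herpud1, Hspa5, Sqstm1 and Mycl, and below for Myc, Mycn, Nolc1, Hmgcs1, Fasn, Idi1 and Slc2a3.

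Few ribosomal protein genes passed the test. Of 77, all tested, 2 rose, 4 fell and 71 did not pass (7.79% called, against 53.9% of all genes), and the log2 changes ran from -0.16 (Rpl11) to 0.15 (Rps21, a call lost in 6 of 18 alternatives). These counts depend on scaling, with 19 rises and 1 fall without scaling factors, and on single libraries: without Ctrl replicates 1, 2 or 3 there were 1, 6 and 0 rises, and 0 without SIS3_TGFb replicate 2, and the falls were 2 without Ctrl replicate 2 or SIS3_TGFb replicate 2. Many have near-identical pseudogenes, so single values are uncertain.

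Nucleotide synthesis genes were lower, 11 of 18 falling, 1 rising and 6 not past the test (median -0.26). The early purine enzymes Ppat (-0.80) and Gart (-0.70) and the last one, Atic (-0.54), were among the falls. Cad stood at 100.3, 91.9 and 94.2 CPM in the Ctrl libraries and at 186, 182 and 188 CPM in the SIS3_TGFb libraries. Cad, which starts pyrimidine synthesis, was the only rise (log2 change 0.96, SE 0.0475, adjusted p = 1.2e-10).

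DNA replication genes fell more often than they rose, while most mitotic genes did not pass. Of 37 replication genes tested, 19 fell, 2 rose and 16 did not pass (median -0.23). The share called, 56.8%, was near the 53.9% of all genes. Among the falls were Pcna (-0.60), Mcm6 (-0.51), Mcm4 (-0.40) and the ribonucleotide reductase chain Rrm1 (-0.49). Mcm7 rose by 0.20 and Gins3 by 0.71. Of 34 mitotic genes, 6 fell, 3 rose and 25 did not pass (26.5% called, against 53.9%). Aurkb fell by 0.47, Cenpa by 0.25 and Ccna2 by 0.24. Falls were 3 without SIS3_TGFb replicate 1, and rises ran from 0 without Ctrl replicate 1 to 5 without Ctrl replicate 3 or TGFb replicate 3 (1 each without Ctrl replicate 2 and SIS3_TGFb replicate 3). Regulators of G1 entry had 8 falls and 3 rises of 16 tested (17 listed), with the cyclin Ccnd3 at -0.58 and the inhibitor Cdkn1b (p27) at 0.61, and 4, 4 and 5 falls without Ctrl replicate 2, SIS3_TGFb replicate 1 and SIS3_TGFb replicate 3.

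**Figure D4:**
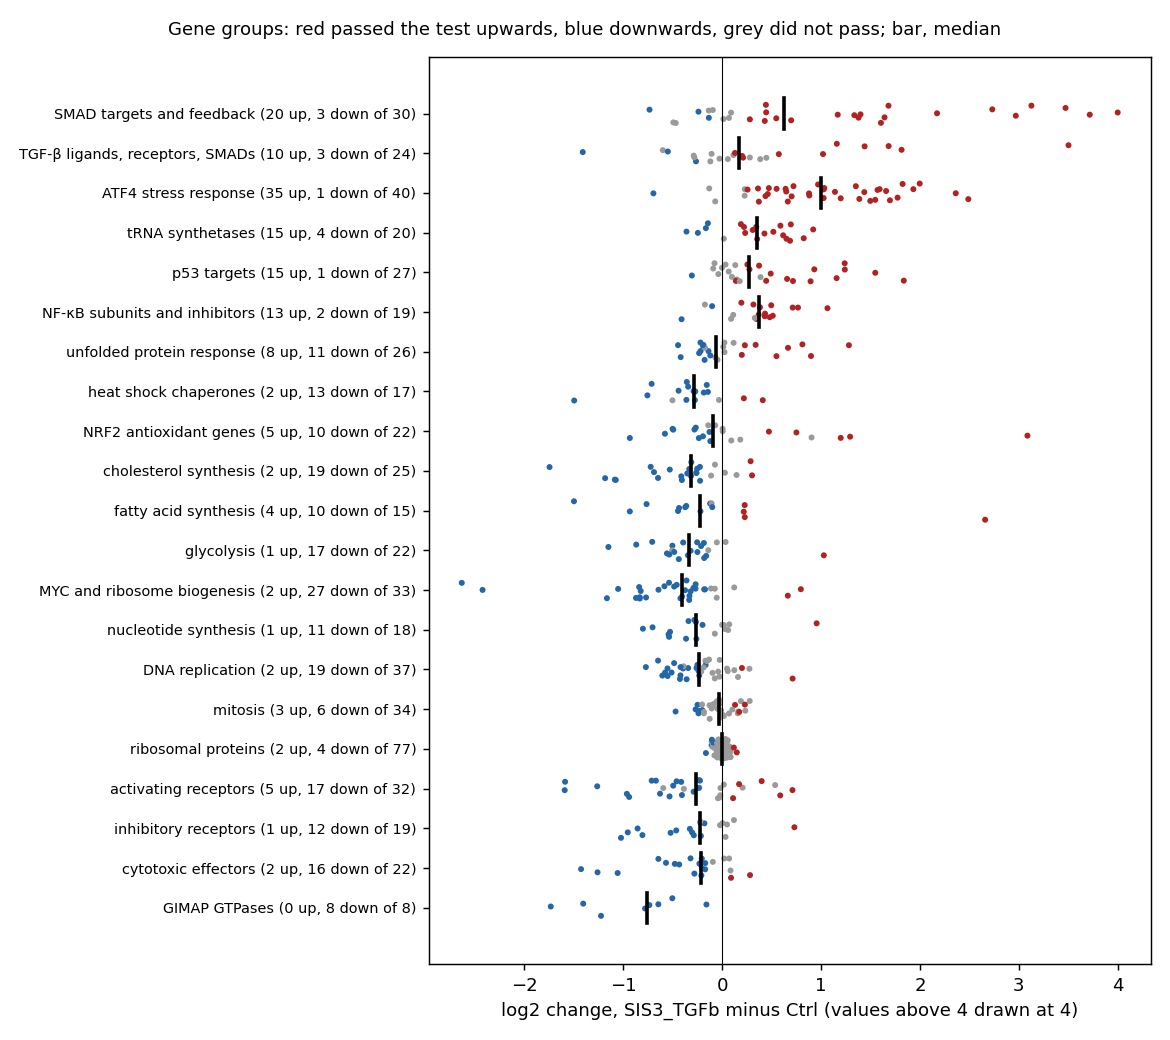
Log2 change of SIS3_TGFb against Ctrl (horizontal axis) for the tested members of 21 gene groups (rows), with points for genes coloured by whether they rose, fell or did not pass, and a bar at each group's median (values above 4, here Pmepa1 alone, are drawn at 4). Medians run from -0.76 for the Gimap genes to 1.00 for the ATF4 targets, and the ribosomal proteins gather at 0.

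Most genes of sterol synthesis fell. Of 25 genes of cholesterol synthesis and uptake tested (26 listed), 19 fell, 2 rose and 4 did not pass (median -0.32), with 18 or 19 falls in each alternative. Levels of Hmgcs1 in Ctrl were 605, 625 and 582 CPM, and those in SIS3_TGFb were 189, 181 and 170.2 CPM. HMG-CoA synthase feeds the mevalonate pathway. The fit gave Hmgcs1 a log2 change of -1.75 (SE 0.0420, adjusted p = 4.8e-14). Idi1 fell by 1.18 and squalene epoxidase Sqle by 0.69, while the last enzyme, Dhcr7, rose by 0.30. A sterol regulatory element (TCACNCCAC, both strands) was found for 1 of 18 genes of this list with a promoter (5.56%) and for 1.16% of tested genes with one. The promoter that held it was that of the gene with the largest fall, shown here for that reason with the element in capitals.
Hmgcs1: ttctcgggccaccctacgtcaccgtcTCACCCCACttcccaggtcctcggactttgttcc
The Hmgcs1 stretch is chr13:119690188-119690247 on the plus strand, its element 137 to 129 bases before the start.

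Fatty acid synthesis genes fell too, 10 of 15 against 4 that rose and 1 that did not pass (median -0.22). Fasn was measured at 212, 197 and 194 CPM in Ctrl and at 72.8, 73.6 and 66.9 CPM in SIS3_TGFb. Fatty acid synthase makes palmitate. For Fasn this was a log2 change of -1.50 (SE 0.0599, adjusted p = 1.0e-11). Scd1, which desaturates it, fell by 0.44, while the elongases Elovl5 and Elovl7 rose by 0.23 and 2.66, Elovl7 from 1.13 ± 0.0847 to 7.20 ± 1.06 CPM. The sterol element was found for 0 of 12 genes of this list with a promoter. Of 10 genes of sterol efflux and transport, 5 rose, 3 fell and 2 did not pass. The exporter Abcg1 rose by 0.96 and the lysosomal transporter Npc1 by 0.34, while its partner Npc2 fell by 0.28.

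Most glycolytic genes were lower. Of 22, all tested, 17 fell, 1 rose and 4 did not pass (median -0.33), with 17 to 19 falls in 18 alternatives. Slc2a3 gave 299, 277 and 281 CPM in the Ctrl libraries and 125, 134 and 128 CPM in the SIS3_TGFb libraries. Slc2a3 (GLUT3) brings glucose into the cell. Slc2a3 fell, with a log2 change of -1.15 (SE 0.0410, adjusted p = 2.5e-12). The phosphofructokinase chain Pfkl fell by 0.71 and pyruvate kinase Pkm by 0.48. Pfkfb3 stood at 29.3, 29.3 and 30.9 CPM in the Ctrl libraries and at 61.7, 61.4 and 59.4 CPM in the SIS3_TGFb libraries. Pfkfb3 makes fructose 2,6-bisphosphate, an activator of phosphofructokinase, and was the only rise (1.03, SE 0.0488, adjusted p = 7.1e-11).

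Targets of hypoxia-inducible factor, some shared with glycolysis, divided, with 4 higher, 6 lower and 4 not past the test of 14 tested (15 listed). Ankrd37 and the prolyl hydroxylase Egln3 (-1.14) fell, while Hif1a rose by 0.60 and Vegfa by 1.12. Among 36 respiratory chain genes there were 13 falls, 4 rises and 19 that did not pass. The share called, 47.2%, was below the 53.9% of all genes. The largest falls were Ndufb3 (-0.39), Cycs (-0.35) and Sdhd (-0.32). The count of rises was 2 without Ctrl replicate 1.

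Alpha-arrestins, which lower nutrient uptake by removing transporters from the membrane, rose in 5 of 5 genes tested (median 0.97). Levels of Arrdc3 in Ctrl were 10.0, 9.06 and 10.1 CPM, and those in SIS3_TGFb were 58.3, 58.4 and 51.1 CPM. Txnip was measured at 614, 567 and 578 CPM in Ctrl and at 1186, 1231 and 1029 CPM in SIS3_TGFb. Txnip, which binds thioredoxin and is induced by glucose, changed by 0.97 and Arrdc3 by 2.52 (SE 0.0623 and 0.0882), with separate groups. Arrdc4 rose by 1.18. Arrdc2 was at 0.29, and without Ctrl replicate 3 or SIS3_TGFb replicate 2, as with DESeq2, the list counted 3 rises.

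The NF-κB genes were mostly higher, 13 of 19 tested, with 2 lower and 4 not past the test (median 0.37). Relb rose by 1.06 from 24.7 ± 0.644 to 51.7 ± 1.31 CPM, and the inhibitor gene Nfkbia by 0.71, Nfkb1 by 0.43 and Nfkb2 by 0.38. Of the 2 falls, Nfkbid was at -0.41, and Traf1 at -0.10 lost its call in 12 of 18 alternatives, among them the fits without Ctrl replicate 1 or 2 or SIS3_TGFb replicate 1 or 3 or TGFb replicate 1 or 2, where the list counted 1 fall. Immediate early and feedback genes went both ways, with 9 higher, 10 lower and 8 not past the test of 27 tested (29 listed). Egr1 rose by 1.14 and the phosphatase Dusp2 by 1.57. Spry2, an inhibitor of growth factor signalling, fell by 1.61, with Myc and Nr4a2 the largest falls of the list.

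Interferon-stimulated genes did not move together. Of 29 tested (30 listed), 8 rose, 5 fell and 16 did not pass (median 0.03). The share called, 44.8%, was below the 53.9% of all genes. Mx1 rose by 1.25 and Gbp3 by 1.07, while Ifit2 fell by 1.07 and Ly6e by 0.48. Cxcl10 gave 2.40, 4.93 and 4.26 CPM in the Ctrl libraries and 17.9, 17.7 and 27.9 CPM in the SIS3_TGFb libraries. Cxcl10 attracts cells that carry CXCR3. The fit gave Cxcl10 a log2 change of 2.45 (SE 0.215, adjusted p = 1.1e-07), and its highest value was in SIS3_TGFb replicate 3. Il1b and Tlr2, chosen after their values were seen, had their highest value in the same library. Il1b stood at 0.568, 0.555 and 0.730 CPM in the Ctrl libraries and at 5.67, 4.36 and 13.8 CPM in the SIS3_TGFb libraries. Levels of Tlr2 in Ctrl were 11.1, 12.7 and 16.4 CPM, and those in SIS3_TGFb were 44.5, 41.4 and 75.1 CPM. Both are strongly expressed by macrophages, whose 15 markers summed to 1985 CPM in that library and to 1285 and 1195 CPM in the other SIS3_TGFb libraries. In Ctrl replicates 1, 2 and 3 the sums were 1428, 1728 and 1896 CPM. Of those 15 markers, 1 rose, 3 fell and 11 did not pass (median log2 change -0.20), and Lyz2 made up 45.2% of their summed counts. For Il1b, Tlr2 and Cxcl10 each SIS3_TGFb library lay above each Ctrl library. The part of macrophages in these values was not tested.

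Clock genes were higher in part. Of 17 tested (19 listed), 7 rose, 2 fell and 8 did not pass (median 0.32). The share called, 52.9%, was near the 53.9% of all genes, and 11 rose without scaling factors or without TGFb replicate 3. Ciart was measured at 6.69, 7.33 and 5.54 CPM in Ctrl and at 35.3, 28.5 and 26.9 CPM in SIS3_TGFb. Ciart represses CLOCK and BMAL1 and is itself under E-box control. For Ciart this was a log2 change of 2.21 (SE 0.119, adjusted p = 3.1e-10). The clock output factors Dbp and Hlf rose by 1.57 and 1.63, and Arntl (BMAL1) by 0.70. Another such factor, Tef, fell by 0.22. Falls numbered 1 without Ctrl replicate 1 or SIS3_TGFb replicate 3. The E-box CACGTG was found for 5 of 15 genes with a promoter (33.3%), beside 9.97% of tested genes with one. Of the 5 with it, Ciart and Per1 (0.22) rose, Tef fell, and Bhlhe41 and Cry1 did not pass. The D-box TTATGTAA was found for 1 of 15 (6.67% beside 0.57%), Per3, which did not pass. A match is a description and not a site shown to be bound.

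Zinc genes went both ways. Of 15 metallothionein and zinc transporter genes, all tested, 7 rose, 6 fell and 2 did not pass. Mt1 and Mt2, which bind zinc, rose by 0.62 and 1.11, Mt2 from 439.6 ± 44.3 to 952 ± 88.3 CPM, although the pair are close copies. The importer Slc39a10 fell by 1.64 from 16.4 ± 1.98 to 5.26 ± 0.632 CPM, Slc39a6 by 0.40, and Slc39a14 rose by 0.67. The metal response element TGCACNC, searched on both strands, was found for 3 of 13 genes with a promoter (23.1%), Mt1, Mt2 and Slc30a1, beside 12.3% of tested genes with one.

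All 8 Gimap genes tested fell. These GTPases act in lymphocyte survival and lie together on chromosome 6. Gimap7 gave 45.8, 43.3 and 40.8 CPM in the Ctrl libraries and 11.7, 14.1 and 13.2 CPM in the SIS3_TGFb libraries. Gimap7 fell, with a log2 change of -1.73 (SE 0.0765, adjusted p = 3.1e-11). Gimap6 fell by 1.22, Gimap3 by 0.78 and Gimap8 by 0.64, and the list's median was -0.76, the lowest of the lists described. They are related in sequence, so single values are uncertain.

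Of 14 host genes of small nucleolar RNAs tested (16 listed), 5 rose, 4 fell and 5 did not pass. Snhg5 (1.86), Snhg1 (1.52) and Snhg12 (1.18) were higher, and Gas5 (-0.84) and Dancr (-1.09) lower. Autophagy and lysosome genes, 33 tested, had 12 rises, 11 falls and 10 that did not pass, with Sqstm1 and Wipi2 (0.51) among the rises and the sialidase Neu1 (-0.44) and Atg2a (-0.42) among the falls. Antigen presentation had 2 rises (Tap1 0.30, Psmb9 0.19), 4 falls and 11 that did not pass of 17. The share called was 35.3%, below the 53.9% of all genes, and the falls numbered 7 without SIS3_TGFb replicate 3. Of 28 genes of the actin skeleton, 16 fell, 4 rose and 8 did not pass. Tmsb4x stood at 7026, 7348 and 6959 CPM in the Ctrl libraries and at 4795, 4721 and 4766 CPM in the SIS3_TGFb libraries. Thymosin β4 holds free actin monomers. The fit gave Tmsb4x a log2 change of -0.58 (SE 0.0396, adjusted p = 5.5e-09). Rac2, which drives actin assembly in blood cells, fell by 0.33, and ezrin (Ezr) and myosin Myh9 rose by 0.30 and 0.39.

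Calls also varied with where genes lie and how much they are expressed. Of 12212 genes, 12187 were matched to RefSeq GRCm38.p6 by Entrez number. X-linked genes fell more often than others: of 392 tested, 17.1% rose and 37.5% fell, with a median log2 change of -0.09, against 29.4% and 24.5% of 11795 other matched genes and a median of 0.02. The share of falls on the X was 29.3% to 42.5% over 18 alternatives and always above that of other genes in the same setting. It was also above in each of 5 classes of equal size by level, from 15.6% against 10.1% in the lowest to 65.7% against 43.1% in the highest. These shares are a description, with no test, since neighbouring genes are not independent. Chromosome 12 had the largest share of rises, 35.7%, with 20.5% falling. With level, falls grew from 10.3% of genes in the lowest of these classes to 43.7% in the highest, where 26.6% rose. Long noncoding RNAs, 358 tested, rose in 23.2% and fell in 14.5% of cases, with a median of 0.15. Values were close to these in the lowest class by level, where 22.5% rose and 10.3% fell, with a median of 0.15. Long noncoding RNAs were not compared with other genes of their own level.

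**Figure D5:**
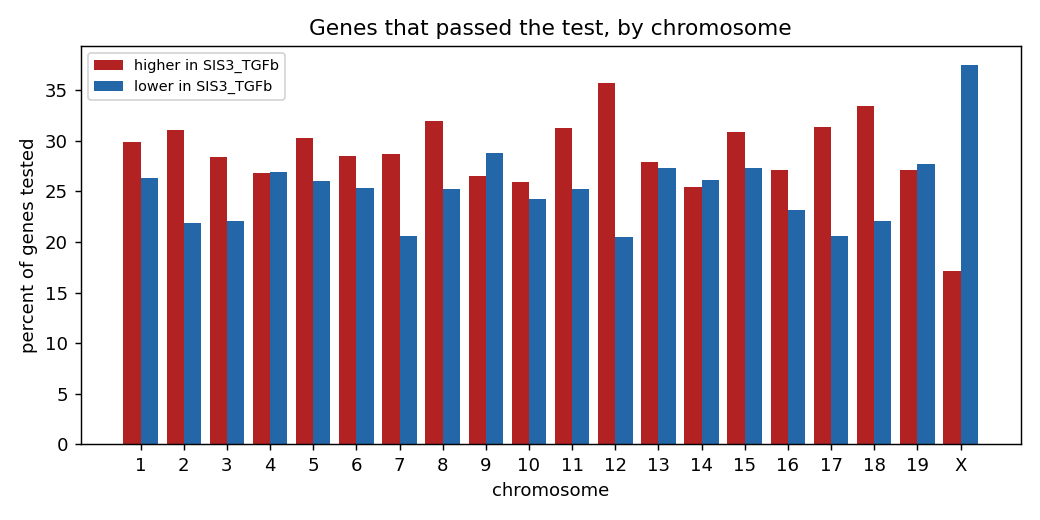
Share of tested genes that rose and that fell in SIS3_TGFb (vertical axis, percent, from 0) by chromosome (horizontal axis), with red bars for rises and blue bars for falls. The X chromosome has the largest share of falls, 37.5%, and the smallest of rises, 17.1%, and chromosome 12 the largest of rises, 35.7%.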

How the data were processed

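Paired reads of 100 bp were taken on the DNBseq platform from the poly-A fraction of 1 µg RNA per sample, per the labels' protocols. The authors deposited 1 gene table of expected counts (estimates of reads, with no scaling for depth or gene length), a unit read from the values, of which 10.18% to 11.06% per library are not whole numbers. Per the submitters' processing notes, HISAT2, StringTie, Cufflinks, Bowtie2, RSEM and DESeq2 were used with GRCm38 and mm10. No source used here gives their versions, roles or annotation, or whether counting used strand, so reads of overlapping or near-identical genes may be shared.

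Expected counts were rounded and filtered with filterByExpr (minimum count 10, minimum total 15). All 9 libraries were fitted with 1 mean per group (TMM scaling, quasi-likelihood functions glmQLFit and glmQLFTest, edgeR 4.0.16, R 4.3.3, common biological coefficient of variation 4.53%). The contrast was SIS3_TGFb minus Ctrl. P-values are two-sided and Benjamini-Hochberg adjusted over 12212 genes, and a gene rose or fell at an adjusted p below 0.05. To obtain the SE, the size of a log2 change was divided by the root of its F statistic. CPM carry TMM scaling, and values after ± are SDs over 3 libraries. At this depth a floor of 3 counts over a group bounds a fold against 0.

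Alternatives were limma 3.58.1 (voom), DESeq2 1.42.0, other scalings and filters, the 6 libraries alone, a replicate block and leaving out each library.

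Named genes are the 10 largest rises and falls (mean of at least 1 log2 CPM, groups separate, numbered gene models, Rik symbols and pseudogenes left out), up to 4 members with the smallest p and 2 opposite members per list, the 8 highest genes with at most 3 counts in 1 group, the 10 largest CPM differences and a set fixed by name. The 41 gene lists, the 10 marker lists and the genes were chosen with earlier results of these data known. The 15 genes with no symbol are not named. Gene positions and promoters are from RefSeq GRCm38.p6. Some genes that the rule for named genes took in are not reported here.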

Additional observations from a re-analysis of the deposited data

How the results depend on the processing

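The number of genes changed, 6585, was 5705 with DESeq2, 6592 with limma voom, 6584 with RLE factors, 6676 with upper-quartile factors, 6617 without scaling factors, 6591 without a low count filter, 6169 with a stricter filter (50 counts in 3 libraries) and 6698 on the 6 libraries alone. Leaving out 1 library, of any group, gave 5875 to 6868. The genes lower by a log2 change of at least 1 numbered 138 under the stricter filter, which tests fewer genes, against 222, and 215 to 261 with 1 library left out. Of 246 named genes, 223 kept their direction and call in each of 18 alternatives, and 0 called genes reversed. Uncalled genes that changed sign were Klrk1 (0.0413 without scaling factors, and from -0.0665 without SIS3_TGFb replicate 1 to 0.0341 without SIS3_TGFb replicate 3) and Klrb1c (0.018 without scaling factors). Whether replicate numbers pair the samples is not stated. Deviations from the group mean in same-numbered Ctrl and SIS3_TGFb libraries had correlations of 0.126, 0.0176 and 0.113. Those of differently numbered libraries ran from -0.163 to 0.0589, and not every library correlated best with its own number. With 3 libraries per group these values cannot settle whether the numbers mark pairs. With the replicate number as a block, 6346 genes changed (3418 higher, 2928 lower). Genes with few counts were left out by the filter, a minimum on counts, so which genes it removes depends on depth too. Without the filter 16849 genes were tested and 6591 changed, of which 6353 are among the 6585. Depth limits the precision at low levels, with an SE of 0.423 for Derl3 (32 counts in the Ctrl libraries) and 0.0375 for Hspa5 (36784).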
